A study of Mus musculus with 18 samples.

Results

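The cadherin superfamily members of the deposited table were compared between *Fibcd1* WT and KO hippocampal neurons cultured on a coating of chondroitin sulphate proteoglycans (CSPGs). Members were the rows whose gene symbol begins as a numbered Cdh, any Pcdh, or a numbered Celsr, Fat, Dchs or Clstn gene and whose chromosome is not X or Y. The rule used names only and found 78 members among the 12012 genes of the table. They comprise 2 type I classical cadherins, 9 type II classical cadherins, *Cdh13*, 3 calsyntenins, 9 non-clustered protocadherins, 47 clustered protocadherins (9 alpha, 19 beta and 19 gamma), 3 Celsr genes and 4 Fat or Dachsous genes. The X-linked members *Pcdh11x* and *Pcdh19* were left out by the rule. GENCODE M21 names 103 such genes off the sex chromosomes, and 25 of them have no row in the table, among them *Cdh1*, *Cdh5*, *Dchs2*, *Fat2* and *Pcdh12*.

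The cells were primary cultures from E18.5 hippocampus, labelled as neurons, of mice carrying the constitutive knockout allele Fibcd1tm1Lex on a C57BL/6J background or of WT mice. FIBCD1 is a receptor that binds acetylated groups on chondroitin sulphate chains, and CSPGs are the brain matrix proteins that carry those chains. Both groups analysed here, WT_CSPG and KO_CSPG, were grown for 2 or 3 days (the study's sources differ) on coverslips coated with a commercial CSPG mixture, and each has 4 libraries with the letters A to D. Of the 18 libraries of the series, the 5 WT and 4 KO libraries without coating and WT_CSPG E were not analysed here, so every value below describes genotype on the coating and none describes the coating itself. According to the study's methods a replicate is a preparation of cells, the mice were age- and sex-matched littermates, and the sex of the embryos behind each library is not given.

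Classical cadherins join neighbouring cells by binding the same cadherin on the opposite membrane, and catenins tie their cytoplasmic tails to actin. Clustered protocadherins are chosen in part at random in each neuron, promoter by promoter, and the combination on the surface lets the branches of a cell recognise and avoid each other. Fat, Dachsous and Celsr proteins are very large atypical cadherins that orient cells within a tissue and guide migration and axon tracts.

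The table holds normalized counts, in which the reads of each library were scaled by its size factor. Between 10099564 and 11174615 reads lay on its genes in the WT_CSPG libraries and between 10541445 and 11647202 in the KO_CSPG libraries. The targeted gene *Fibcd1* had 54.3, 70.4, 60.1 and 182 normalized counts in WT_CSPG A to D and 0.97, 0.93, 7.16 and 4.74 in KO_CSPG A to D, so the groups were apart and carried their labels. Neuronal *Rbfox3* was present in every library at 830 to 972 normalized counts, but so was the astrocyte gene *Gfap* at 17695 to 22279, so glial RNA was present too. The 4 Y-linked genes measured (*Kdm5d*, *Eif2s3y*, *Uty* and *Ddx3y*) summed to 1557 to 1935 in WT_CSPG and to 878 to 1092 in KO_CSPG. Genotype and this difference in Y-linked RNA cannot be told apart, since genotype accounts for 89.8% of the variance of their mean log2 level. *Ttr*, a choroid plexus gene, ranged from 11.6 to 3529 in WT_CSPG with its highest values in B and D, and from 5.11 to 243 in KO_CSPG.

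The most abundant members per kilobase of transcript were adhesion genes of the synapse and the growing neurite. *Clstn1*, a calsyntenin that links vesicle cargo to kinesin, stood highest at a mean of 1694 normalized counts per kilobase over the 8 libraries. *Pcdh8*, a non-clustered protocadherin also known as arcadlin that associates with N-cadherin, followed at 529. Then came *Clstn3* at 403 and *Cdh2* (N-cadherin) at 400. Among the large atypical cadherins *Dchs1* reached 198, *Celsr3* 173 and *Celsr2* 151 normalized counts per kilobase. The clustered members lay lower, with *Pcdhgc3* at 140, *Pcdhac2* at 91.6 and *Pcdhb9* at 74.4 as the highest of their gamma, alpha and beta clusters, and the lowest member of all was *Pcdh15*, a cadherin of hair cells and photoreceptors, at 4.43. For alpha and gamma genes the length used here includes exons that several genes have in common (below), and the order depends on the length used. Per kilobase of exon bases in no other gene on the strand, *Pcdhgc3* stood at 228 and *Pcdhac2* at 178. On that scale *Dchs1* stood at 198, *Celsr3* at 173 and *Celsr2* at 151.

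**Figure D1:**
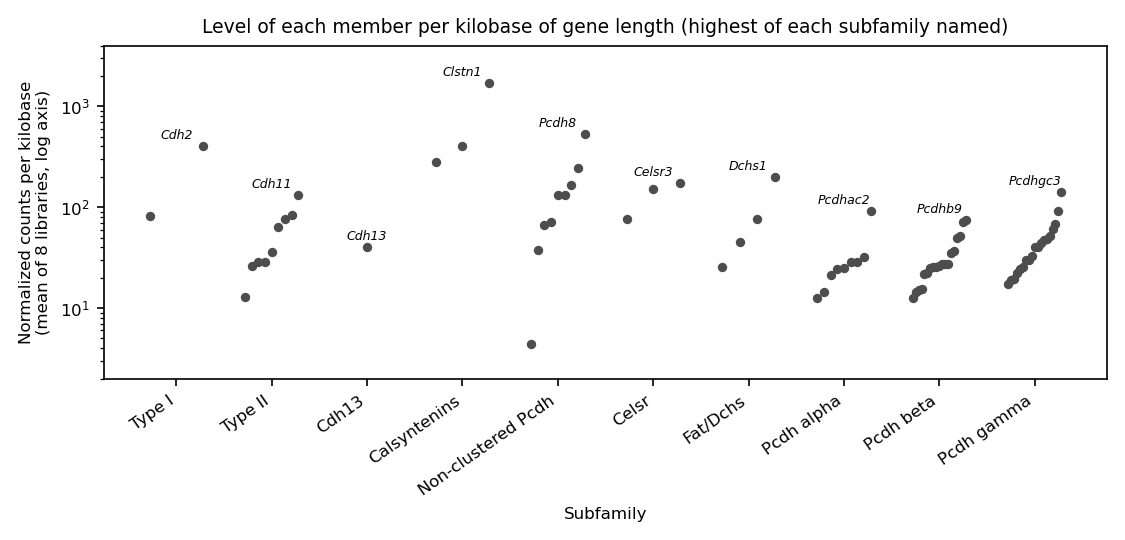
Level of each of the 78 members in normalized counts per kilobase of transcript (log axis), by subfamily. *Clstn1* stands highest at 1694 and *Pcdh15* lowest at 4.43 as the mean over the 8 libraries.

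Between genotypes 5 of the 78 members changed at an adjusted p under 0.05 (limma on log2(value + 1), Benjamini-Hochberg over 12012 genes), which is 6.41% beside 2.83% of the 11588 genes off chromosomes X and Y. *Pcdha9*, *Pcdh8*, *Celsr1* and *Dchs1* fell in KO_CSPG (5.13% of members beside 1.78% of genes) and *Pcdh9* rose (1.28% beside 1.05%). Every one of these changes was modest, from -33.4% for *Pcdha9* to 13.2% for *Pcdh9*. The median log2 fold change of the members was -0.0067 beside -0.00021 over the 11588 genes, and 43 of 78 were below 0 (55.1% beside 50.1%). That median turned to 0.0097 (36 below 0) without KO_CSPG A, was -0.030 (51 below 0) without KO_CSPG B, and was -0.20 (59 below 0) with the mean log2 level of the Y-linked genes as a covariate. For 74 of 78 members the 95% interval of the log2 fold change lay within 0.5 of 0, and for 33 it lay within 0.25. These are bulk cultures, in which fewer cells of a type and less RNA per cell cannot be told apart. The sources used here do not say that the preparations came from separate litters, so the p-values measure the spread between these libraries. A model with no trend of variance on level called 0 of the 78 members (10 at an unadjusted p under 0.05, against 13 in the fit reported). Over the 11588 genes 1876 had an unadjusted p under 0.05 in the fit reported (limma). All counts at an unadjusted p below are to be read against that level.

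**Figure D2:**
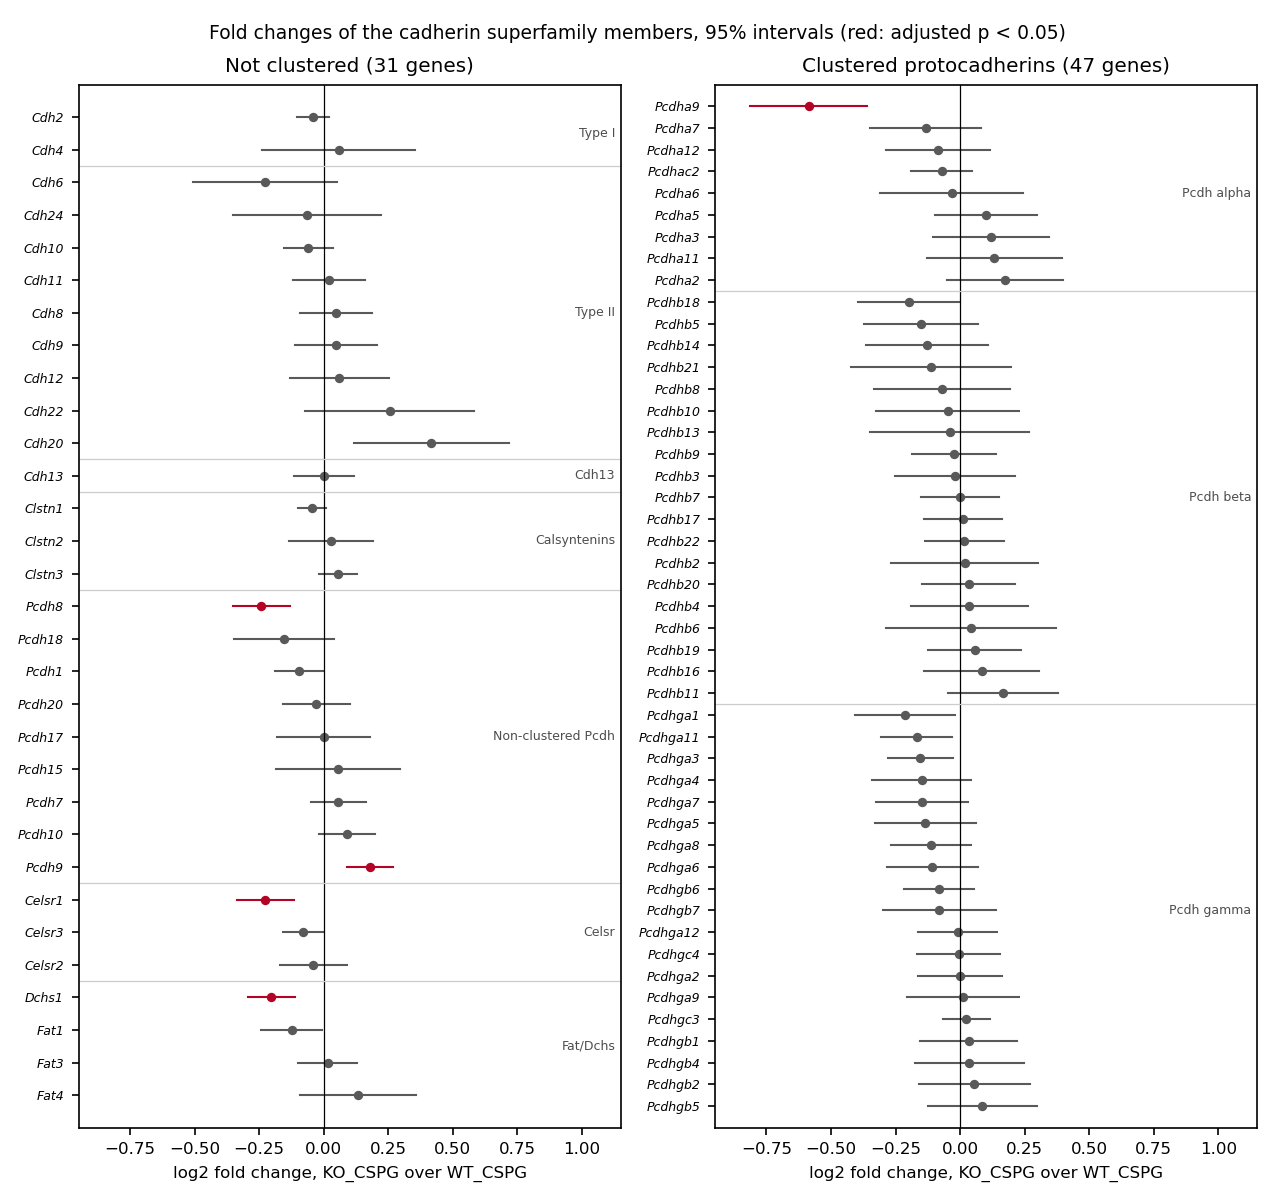
Log2 fold change of each member, KO_CSPG over WT_CSPG, with its 95% interval (limma), by subfamily, with members at an adjusted p under 0.05 marked. *Pcdha9* lies lowest at -0.59, the intervals of most members cross 0, and *Cdh20* at 0.42 has the highest value without passing the threshold.

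Many of the 9 non-clustered protocadherins act in the sorting of axons and in the making and loss of synapses. *Pcdh8* and *Pcdh9* passed the test in opposite directions (1 lower and 1 higher of 9), and the median log2 fold change of the 9 was -0.0011. *Pcdh8* (chr14:79766775-79771312 in mm10, minus strand), which draws N-cadherin into the cell when neurons are active, had 2575, 2374, 2866 and 2594 normalized counts in WT_CSPG A to D and 2027, 2259, 2287 and 2217 in KO_CSPG A to D. All KO_CSPG libraries were below all WT_CSPG libraries, although KO_CSPG C and WT_CSPG B lay close. The means were 2602 ± 202 and 2198 ± 118 (SD, n = 4 each), a log2 fold change of -0.24 (SE 0.052, 95% interval -0.35 to -0.13, limma adjusted p = 0.023). *Pcdh9* (chr14:93013410-93890679, minus strand), a homophilic protocadherin of cortical neurons, had 843, 825, 854 and 865 in WT_CSPG and 976, 1016, 912 and 935 in KO_CSPG. Every KO_CSPG library was above every WT_CSPG library, and the WT_CSPG values were tight. Its means were 847 ± 17.1 and 960 ± 46.2 (n = 4 each), a log2 fold change of 0.18 (SE 0.043, 95% interval 0.091 to 0.27, limma adjusted p = 0.020). Both calls depended on single libraries, since *Pcdh8* kept an adjusted p under 0.05 in 5 and *Pcdh9* in 4 of the 8 fits that each left out 1 library, with adjusted p up to 0.061 for *Pcdh8* (without KO_CSPG D) and 0.078 for *Pcdh9* (without KO_CSPG A). Exons of *Pcdh8* overlap a gene on the other strand over 9.61% of their bases, and reads of both cannot be told apart unless strand was used in counting, which the sources used here do not say.

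The 250 bases before the starts of *Pcdh8* and *Pcdh9* are shown from RefSeq on GRCm38.p6, 5′ to 3′ on the minus strand. TATAAA and the CCAAT box (CCAAT or its reverse complement ATTGG) are in capitals. These genes were the 2 of 5 changed members with an entry that could be shown, and a link of the letters to their changes was not tested. The *Pcdh8* stretch is chr14:79771313-79771562 and the *Pcdh9* stretch is chr14:93890680-93890929.
Pcdh8: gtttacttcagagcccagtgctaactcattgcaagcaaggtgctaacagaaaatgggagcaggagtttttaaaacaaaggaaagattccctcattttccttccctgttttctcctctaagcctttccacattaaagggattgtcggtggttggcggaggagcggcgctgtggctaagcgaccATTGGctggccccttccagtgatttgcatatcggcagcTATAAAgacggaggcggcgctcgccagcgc
Pcdh9: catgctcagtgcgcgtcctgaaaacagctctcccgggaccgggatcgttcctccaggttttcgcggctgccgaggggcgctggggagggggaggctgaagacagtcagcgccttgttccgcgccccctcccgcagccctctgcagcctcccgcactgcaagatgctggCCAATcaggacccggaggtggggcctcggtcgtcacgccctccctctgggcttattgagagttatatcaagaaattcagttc
The *Pcdh8* stretch has its TATAAA 30 bases before the start and its CCAAT box 68 bases before it, a GC content of 51.2% and 11 CG dinucleotides. The *Pcdh9* stretch has a CCAAT box 82 bases before the start and no TATAAA, a GC content of 63.6% and 18 CG dinucleotides. Searched on both strands, 12.4% of the 32851 promoter entries hold TATAAA and 33.8% hold the CCAAT box, and their medians are 52.4% GC and 6 CG dinucleotides. These are descriptions of letters, and the motifs were chosen after the sequences had been read.

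The other non-clustered protocadherins did not pass the test. *Pcdh10*, a protocadherin that acts in synapse elimination, had 1098 ± 94.3 in WT_CSPG and 1167 ± 53.9 in KO_CSPG (log2 fold change 0.09, limma adjusted p = 0.42), and it passed in the fit that left out both WT_CSPG B and D, the libraries highest in *Ttr* (0.19, adjusted p = 0.023). *Pcdh17*, which organises corticobasal synapses, was nearly level at 1258 ± 167 and 1250 ± 41.7 (n = 4 each). *Pcdh20* had 1346 ± 119 and 1318 ± 87.4, *Pcdh1* 1496 ± 108 and 1398 ± 60.2, and *Pcdh7* 693 ± 39.5 and 721 ± 45.9. *Pcdh18*, with the lowest log2 fold change of these (-0.15), had 211 ± 12.7 in WT_CSPG and 191 ± 28.1 in KO_CSPG. In each of these the WT_CSPG and KO_CSPG libraries overlapped.

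The atypical cadherins of planar cell polarity gave 2 of the 5 changed members, both lower. *Dchs1* (chr7:105752990-105787654, minus strand), the Dachsous ligand of FAT4 that neuronal progenitors use in migration, had 2300, 2473, 2301 and 2306 normalized counts in WT_CSPG A to D and 1947, 2242, 1906 and 2067 in KO_CSPG A to D. The groups did not overlap, and B was the highest library of each. The means were 2345 ± 85.5 and 2040 ± 151 (n = 4 each), a log2 fold change of -0.20 (SE 0.043, 95% interval -0.29 to -0.11, limma adjusted p = 0.012). Of the 8 fits leaving out 1 library, 7 kept this call and the fit without KO_CSPG A gave an adjusted p of 0.053. Exons on the other strand overlap 5.86% of its bases. *Celsr1* (chr15:85898758-86033777, minus strand), a multi-pass cadherin at the core of the polarity pathway in progenitors and ependyma, had 831, 979, 948 and 863 in WT_CSPG and 740, 842, 739 and 770 in KO_CSPG. Here KO_CSPG B was above WT_CSPG A, and the other KO_CSPG libraries were below every WT_CSPG library. Its means were 905 ± 69.6 and 773 ± 48.4 (n = 4 each), a log2 fold change of -0.23 (SE 0.054, 95% interval -0.34 to -0.12, limma adjusted p = 0.020). That call was kept in 3 of the 8 fits leaving out 1 library and was lost with WT_CSPG B, WT_CSPG C, KO_CSPG A, KO_CSPG C or KO_CSPG D left out (adjusted p up to 0.090).

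The Fat genes and the other Celsr genes did not pass. *Fat4*, the receptor of DCHS1, had 1202, 1356, 1109 and 1326 in WT_CSPG and 1292, 1618, 1304 and 1267 in KO_CSPG, a log2 fold change of 0.13 (SE 0.097, limma adjusted p = 0.58). Its libraries overlapped and its value was opposite in sign to that of *Dchs1*, a contrast that was not tested. *Fat1*, which binds regulators of actin at the leading edge of cells, had 742 ± 53.4 and 681 ± 53.1 (log2 fold change -0.12, adjusted p = 0.28). *Fat3*, which shapes dendrites of retinal amacrine cells, was near level at 543 ± 26.3 and 549 ± 38.3. *Celsr3*, required for the major axon tracts of the forebrain, had 2139 ± 74.4 and 2023 ± 103 (log2 fold change -0.08, adjusted p = 0.29), and *Celsr2*, a cadherin of dendrite upkeep and ependymal cilia, had 1770 ± 162 and 1718 ± 94.9. All 3 Celsr genes were thus below 0 on the log2 scale, with a median of -0.08, but 1 of 3 passed. These are long transcripts, and in the longest sixth of genes (8201 bases or more) the median log2 fold change was -0.016 against 0.027 in the shortest. With that trend removed *Dchs1* and *Celsr1* still passed. With the Y-linked covariate *Dchs1* was at -0.55 (limma adjusted p = 0.058) and *Celsr1* at -0.65 (adjusted p = 0.10).

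**Figure D3:**
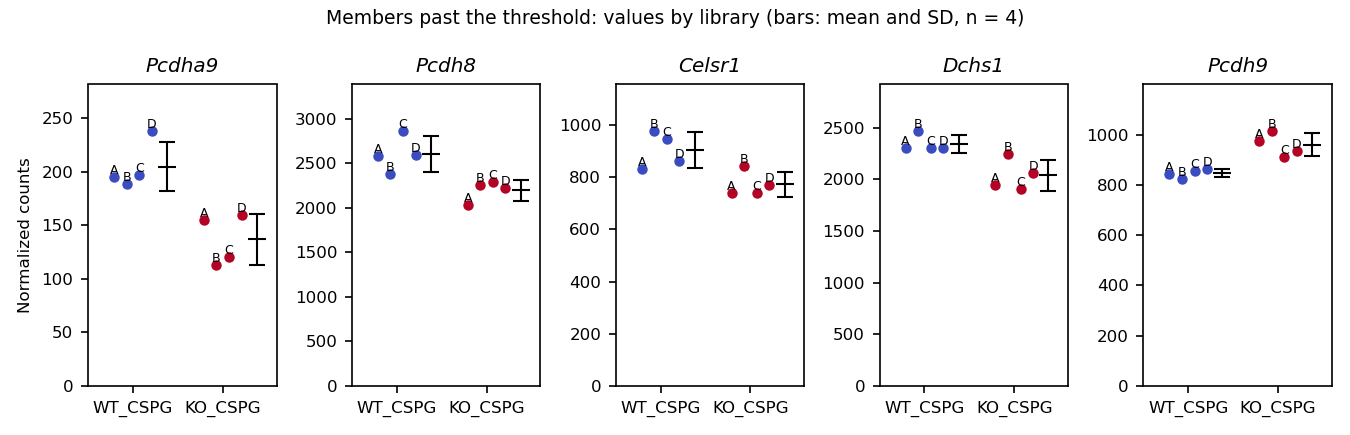
Normalized counts of the 5 members at an adjusted p under 0.05 in each library (letters), with the mean and SD of each group beside the points (n = 4). The groups do not overlap for *Pcdha9*, *Pcdh8*, *Dchs1* and *Pcdh9*, and for *Celsr1* KO_CSPG B at 842 lies above WT_CSPG A at 831.

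The clustered protocadherins lie side by side on chromosome 18, and 1 of the 47 in the table changed. *Pcdha9* (chr18:36997880-37187657, plus strand), an alternate alpha isoform, had 195, 188, 197 and 238 normalized counts in WT_CSPG A to D and 155, 113, 121 and 159 in KO_CSPG A to D. Every KO_CSPG library was below every WT_CSPG library, and WT_CSPG D stood above the others of its group. The means were 205 ± 22.7 and 137 ± 23.6 (n = 4 each), a log2 fold change of -0.59 (SE 0.11, 95% interval -0.81 to -0.36, limma adjusted p = 0.0037), which is the largest absolute fold change among the 78 members. The call was kept in all 8 fits leaving out 1 library (adjusted p up to 0.021). Alpha genes share their last exons, so that 53.5% of the 5341 exon bases of *Pcdha9* also belong to exons of 12 other genes on its strand, and how the authors' counting shared out such reads is not given in the sources used here. Its value is therefore uncertain as a measure of this isoform alone. With the Y-linked covariate its log2 fold change became -0.0035 (adjusted p = 0.998), in a fit where the covariate and genotype are nearly the same variable.

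Its alpha neighbours did not follow. Of the 9 alpha genes, 5 were below 0 and 4 above, with a median of -0.032 and a highest value of 0.17 for *Pcdha2*, which had 122 ± 20.9 in WT_CSPG and 137 ± 11.1 in KO_CSPG (adjusted p = 0.47). The constitutive isoform *Pcdhac2*, which serotonergic neurons need for their axons to spread, had 553 ± 38.7 and 526 ± 34.1 (log2 fold change -0.07, limma adjusted p = 0.60). Summed over the 9 alpha genes the libraries held 1569 ± 72.2 in WT_CSPG and 1498 ± 59.8 in KO_CSPG, a difference of -4.55% with overlapping libraries.

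In the beta cluster the genes are single exons that seldom overlap exons of other genes on the strand (median 0% of exon bases shared). Similarity of sequence between the beta genes was not examined. Of these genes 0 of 19 changed by limma (1 at an unadjusted p under 0.05). Their log2 fold changes ran from -0.20 for *Pcdhb18* (141 ± 9.85 and 123 ± 11.2, adjusted p = 0.31) to 0.17 for *Pcdhb11* (113 ± 12.8 and 127 ± 8.16, adjusted p = 0.46), with a median of -0.0012. The summed beta values were 2548 ± 43.5 and 2530 ± 131, a difference of -0.73%. The median gene here had an SE of 0.11, so a change of the size of *Dchs1* or *Pcdh8* was not detectable at this depth for most of them.

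In the gamma cluster 0 of 19 changed by limma (3 at an unadjusted p under 0.05, beside 1876 of 11588 genes). The values leaned lower, with 13 of 19 below 0 (68.4% beside 50.1% of genes) and a median of -0.08. *Pcdhga1* was lowest with 173 ± 12.8 in WT_CSPG and 150 ± 18.3 in KO_CSPG (log2 fold change -0.21, limma adjusted p = 0.25). *Pcdhga11* had 294, 316, 316 and 287 in WT_CSPG and 252, 283, 262 and 284 in KO_CSPG. Its groups did not overlap but its log2 fold change of -0.17 missed the threshold (adjusted p = 0.20), and 29.0% of its exon bases overlap exons on the other strand. *Pcdhgb5* lay highest at 125 ± 14.2 and 133 ± 12.4 (log2 fold change 0.09, adjusted p = 0.76), and the constitutive isoform *Pcdhgc3*, which promotes dendrite branching, was level at 765 ± 23.3 and 778 ± 32.6 (0.025, adjusted p = 0.85) with 28.4% of its bases overlapped in that way. Gamma genes share a median of 44.6% of their exon bases with others on the strand, and how such reads were counted is not given. Their values may therefore not be independent of each other, and the count of 13 may not be a count of separate changes. The gamma sum was 4491 ± 55.1 and 4312 ± 174, a difference of -3.99%, with KO_CSPG A and C below every WT_CSPG library and KO_CSPG B and D inside their range.

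**Figure D4:**
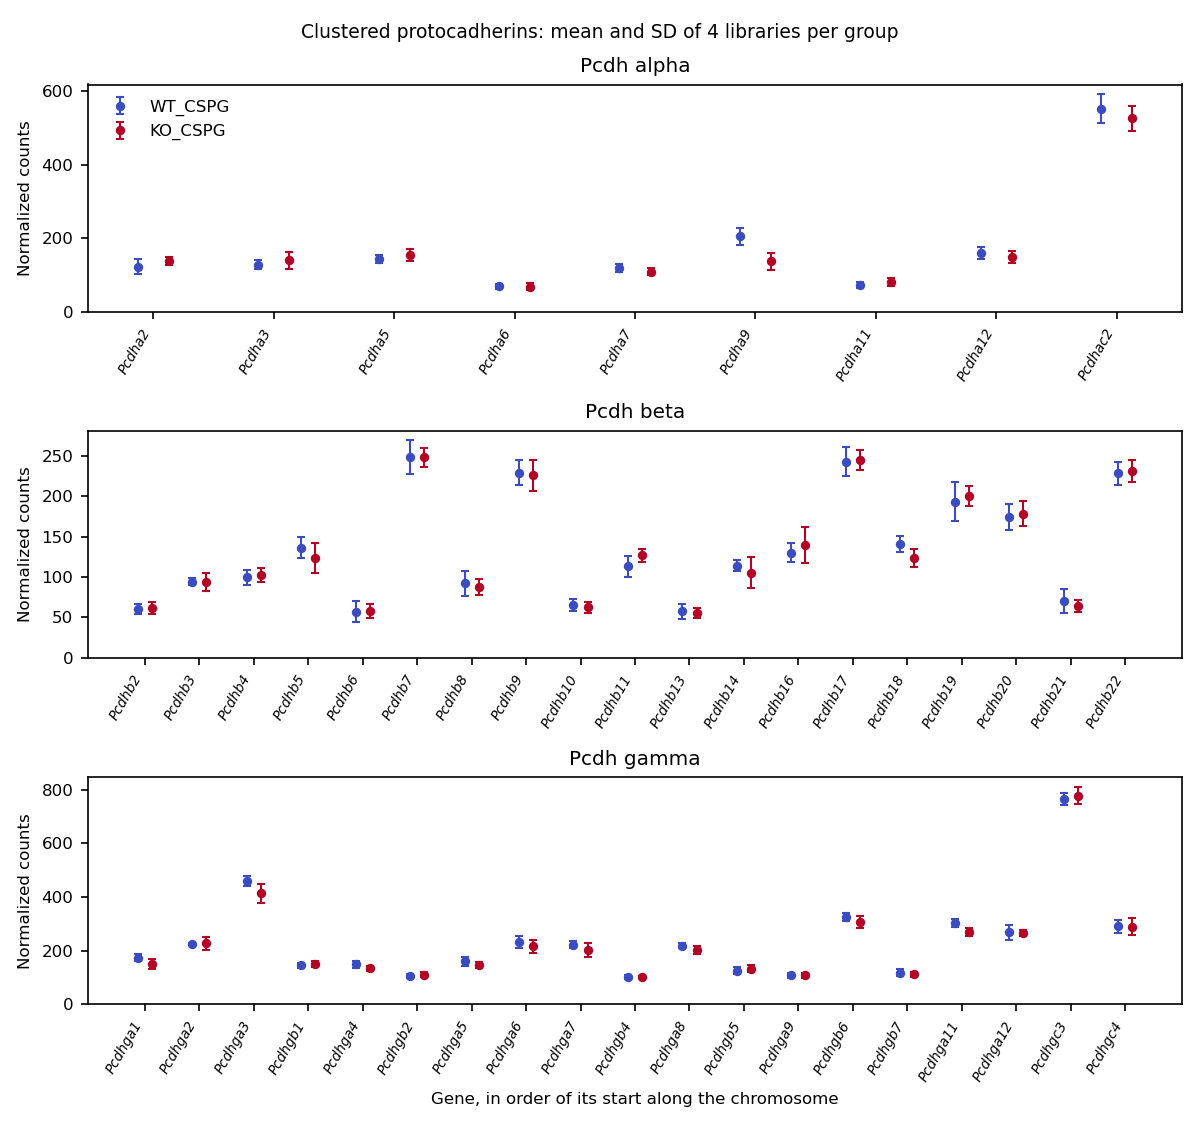
The 47 clustered protocadherins compared between KO_CSPG and WT_CSPG, in their order along chromosome 18 (alpha, beta and gamma). *Pcdha9*, at a log2 fold change of -0.59, is the member past the threshold by limma. On that scale its alpha neighbours lie between -0.13 and 0.17, and 13 of the 19 gamma genes lie below 0.

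Over all members the groups did not overlap for 1 gene higher in KO_CSPG (*Pcdh9*, 1.28% of members beside 4.03% of genes) and for 4 lower (*Pcdha9*, *Pcdh8*, *Dchs1* and *Pcdhga11*, 5.13% beside 5.21%). By this count the members lay at or below the level of the table.

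The classical cadherins and calsyntenins gave no changed member by limma. *Cdh2*, the N-cadherin of most neural junctions and synapses, had 3258, 3309, 3221 and 3315 in WT_CSPG and 3222, 3296, 3150 and 3069 in KO_CSPG. Those groups overlapped with means of 3276 ± 44.8 and 3184 ± 97.4, and the 95% interval of the log2 fold change ran from -0.104 to 0.022. *Cdh4*, or R-cadherin, was uneven in WT_CSPG (462 to 724) and had 579 ± 111 and 595 ± 30.1. None of the type I genes had an unadjusted p under 0.05.

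Among the 9 type II cadherins, which sort neurons by subtype, 0 passed (1 at an unadjusted p under 0.05) and 6 were above 0, with a median of 0.046. *Cdh20* had the highest value, with 102, 125, 105 and 164 in WT_CSPG and 181, 146, 187 and 141 in KO_CSPG. WT_CSPG D lay inside the KO_CSPG range and the other WT_CSPG libraries lay below it. The means were 124 ± 28.5 and 164 ± 23.5, a log2 fold change of 0.42 (SE 0.14, limma adjusted p = 0.14), and without WT_CSPG D it was 0.56 and passed (adjusted p = 0.0031). *Cdh6* was lowest at 74.1 ± 7.03 and 63.5 ± 9.27 (log2 fold change -0.23, adjusted p = 0.43). *Cdh11*, also a cadherin of mesenchyme and the most abundant type II gene per kilobase, had 1156 ± 114 and 1170 ± 77.5. *Cdh8* had 636 ± 62.9 and 656 ± 47.6, and *Cdh10* had 789 ± 30.6 and 756 ± 34.9. *Cdh13*, or T-cadherin, which lacks a cytoplasmic tail and is held by a lipid anchor, was level at 450 ± 31.9 and 450 ± 7.97 (log2 fold change 0.0016, 95% interval -0.12 to 0.12). Of the 3 calsyntenins, 0 passed and 0 had an unadjusted p under 0.05, with *Clstn1* at 8019 ± 72.4 and 7777 ± 180, *Clstn2* at 1595 ± 141 and 1626 ± 135, and *Clstn3*, a postsynaptic organiser, at 1965 ± 51.4 and 2044 ± 86.0.

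Among the partners of these proteins 2 genes changed, where 2.83% of the 11588 genes off chromosomes X and Y did. Of those genes 1876 had an unadjusted p under 0.05 by limma. Their groups did not overlap for 4.03% (higher in KO_CSPG) and 5.21% (lower). Of the 12 catenin genes listed, 8 are in the table and 0 changed by limma (2 at an unadjusted p under 0.05). These were *Ctnna2*, the neuronal alpha-catenin (3730 ± 57.0 and 3500 ± 96.1, log2 fold change -0.09, adjusted p = 0.098), and *Ctnnb1*, or beta-catenin (9696 ± 142 and 9228 ± 226, -0.07, adjusted p = 0.14), and in both every KO_CSPG library was below every WT_CSPG library. The largest absolute log2 fold change was that of *Arvcf*, a p120 relative that binds cadherin tails, at 0.11 (744 ± 49.4 and 802 ± 54.7) with overlapping libraries. Of 15 other junction partners 1 changed (4 at an unadjusted p under 0.05), *Iqgap1*, a scaffold that competes for beta-catenin and binds actin. It had 668, 723, 696 and 729 in WT_CSPG and 616, 622, 551 and 572 in KO_CSPG with no overlap, a log2 fold change of -0.26 (limma adjusted p = 0.0044). The others at an unadjusted p under 0.05 were *Vcl* (-0.24, adjusted p = 0.071, no overlap), *Plekha7* (-0.28, adjusted p = 0.16) and *Magi1* (0.08, adjusted p = 0.29, no overlap). Of 14 genes listed as planar polarity partners, all in the table, 1 changed (3 at an unadjusted p under 0.05), *Fzd6*, a Frizzled receptor that acts with CELSR1, from 73.6 ± 10.7 to 50.7 ± 3.70 (log2 fold change -0.52, adjusted p = 0.038). Like *Celsr1* and *Dchs1* it was lower in KO_CSPG, a likeness that was not tested. Of 8 genes for cadherin cleavage and processing 7 are in the table, with 0 changed (1 at an unadjusted p under 0.05). Of 13 regulators of the protocadherin promoters 12 are in the table, with 0 changed (2 at an unadjusted p under 0.05). The largest absolute log2 fold change was that of *Nipbl*, the cohesin loader (1192 ± 46.3 and 1078 ± 61.7, -0.15, adjusted p = 0.071).

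Markers of cell types moved with genotype in places. Of 7 oligodendrocyte lineage markers, all in the table, *Olig1* (0.59) and *Olig2* (0.79) were higher on the log2 scale, and the list summed to 1038 to 1346 in WT_CSPG and 1652 to 1818 in KO_CSPG with no overlap. Of 8 excitatory neuron markers *Prox1* (0.29), a gene of dentate granule cells, was higher and *Neurod2* (-0.21) and *Neurod6* (-0.19) were lower. None of the other lists had a changed gene by limma. These were 8 astrocyte markers (2 at an unadjusted p under 0.05), 6 of 8 microglia markers (4), 6 of 8 fibroblast and mural markers (1), 8 interneuron markers (2), 3 of 5 Cajal-Retzius markers (1), 3 of 8 choroid plexus markers (0) and 1 of 6 endothelial markers (1), with *Pecam1*, *Cldn5* and *Cdh5* without a row. The fibroblast and mural list summed to 439 to 874 in WT_CSPG and 577 to 1367 in KO_CSPG. The part of these cells in the changes of *Pcdh8*, *Pcdh9*, *Celsr1*, *Dchs1* and *Pcdha9* was not tested.

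**Figure D5:**
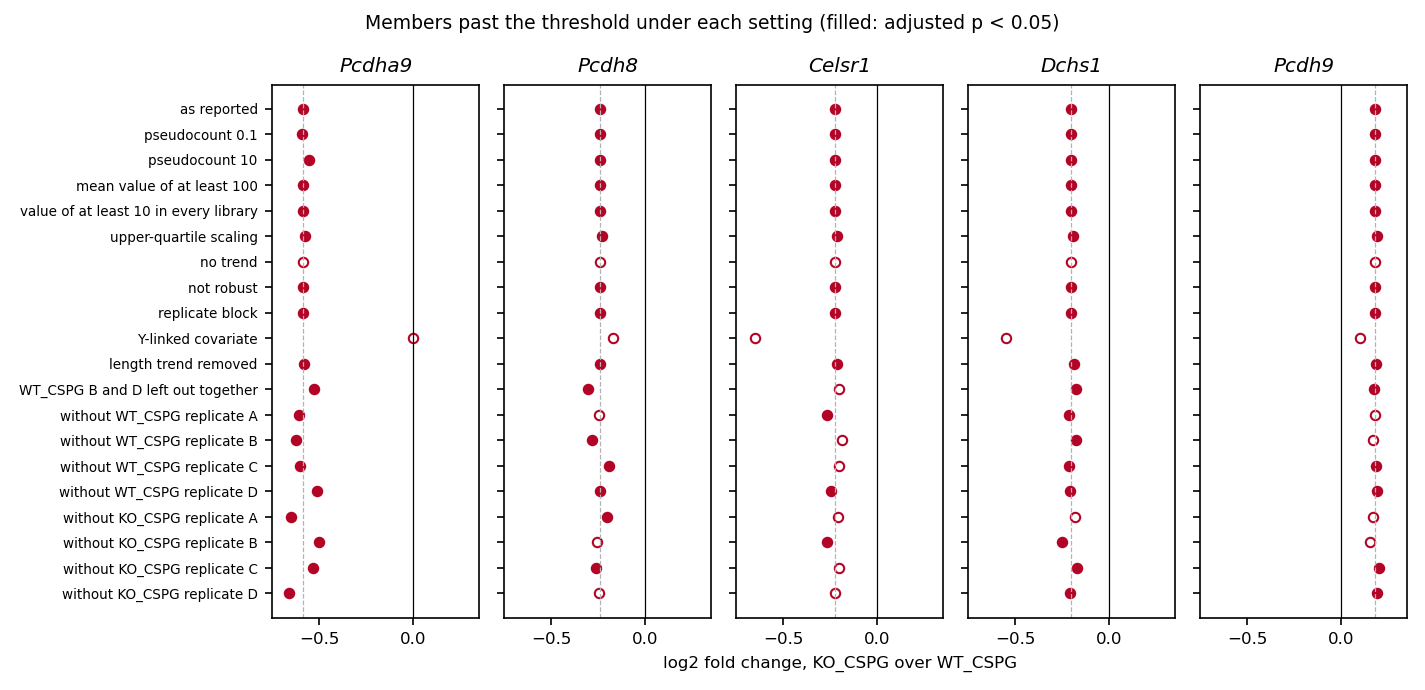
Log2 fold change of the 5 changed members under each setting of the fit, KO_CSPG over WT_CSPG, filled where the adjusted p was under 0.05. All values keep their sign, *Pcdha9* is filled in 17 of 19 alternative settings, and no member is filled with no trend of variance or with the Y-linked covariate, where *Pcdha9* lies at -0.0035, *Dchs1* at -0.55 and *Celsr1* at -0.65.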

How the data were processed

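Poly-A RNA of the cultures was sequenced as single reads, aligned by a facility and normalised by the authors, whose processing notes name mm10 and DESeq2. The aligner and the counting program are not given in the sources used here. The authors deposited 1 table of 12012 genes with a normalized signal per library (reads divided by a size factor), and 0 of its per-sample columns were left unused. Its lowest mean is 40.7, so genes at lower levels are not covered, and a difference under the spread of 4 libraries cannot be seen. Its other columns hold the authors' log2 fold change, a test score, p-values and adjusted p-values of their own comparison, and they were not used.

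Values were transformed as log2(value + 1) (pseudocount 1) and the WT_CSPG and KO_CSPG libraries were fitted by limma (3.58.1, R 4.3.3) using a robust, level-dependent prior for the variances, with p-values adjusted after Benjamini and Hochberg over all genes. The fit was tested on simulated data. Groups and letters came from the labels. Changed means an adjusted p under 0.05. Fold changes on this scale understate those of low genes. The design had been planned for counts. The deposited values are normalized, and no count model was fitted to them or to reads recovered from them. Because reads were assigned before deposit, reads of shared exons cannot be assigned anew, and abundance was ranked between genes only per kilobase.

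Members, gene lists and tests were chosen with earlier results of these data known. Named members are those changed, in each subfamily the highest mean and the highest and lowest log2 fold change, and a fixed list. From each partner list, genes past the threshold were named, or otherwise the gene with the largest difference, and 1 such gene is not reported here. *Pcdhga11*, *Pcdhb9*, *Pcdh15*, *Rbfox3*, *Gfap*, *Ttr*, *Ctnna2*, *Ctnnb1*, *Vcl*, *Plekha7* and *Magi1* were named after their values were seen. Starts are counted from 1. Exon sharing was computed from GENCODE M21 on GRCm38, where all 78 members were found by identifier and 72 with identical coordinates. Alternatives were other pseudocounts, filters, scaling and variance models, a replicate block, a Y-linked covariate, removal of a length trend, and leaving out libraries. Removing the length trend and leaving out WT_CSPG B and D together were chosen after seeing the data.

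The letters A to D do not state a shared litter or day. Residuals of libraries with the same letter correlated at -0.074 (A), 0.096 (B), 0.275 (C) and -0.005 (D) over all genes. Over the members they correlated at -0.176 (A), 0.23 (B), 0.076 (C) and 0.117 (D). No comparison with libraries of different letters is given, so these values cannot settle whether the letters pair libraries. The fit reported did not pair them.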

Additional observations from a re-analysis of the deposited data

Results flagged for a closer look

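Of 72 groups of 4 libraries examined (35 named members and *Fibcd1* in both groups), 4 had a library far from the others of its group, where chance gives about 1 in 20, or 3.6. *Fat4* in KO_CSPG B had 1618 normalized counts, against 1267 to 1304 in the other KO_CSPG libraries. *Dchs1* in WT_CSPG B had 2473 normalized counts, against 2300 to 2306 in the others, and without that library its log2 fold change was -0.18 and it still passed. *Pcdha9* in WT_CSPG D had 238 normalized counts, against 188 to 197 in the others, and without that library its log2 fold change was -0.51 and it still passed. *Fibcd1* in WT_CSPG D had 182 normalized counts, against 54.3 to 70.4 in the others, and D was also the library with the highest *Ttr*.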

How the results depend on the processing

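The 5 changed members stayed 5 with a pseudocount of 0.1 or 10, a mean of at least 100, at least 10 in each library, upper-quartile scaling, no robust variances, the length trend removed and a replicate block. Upper-quartile scaling turned the 122 higher and 206 lower genes into 171 and 170 (from 37.2% to 50.1% higher), with a shift of the median of 0.012. The block on the letters also left 5 members changed and gave 405 genes, and the letters were not taken to pair the libraries. The count of members was 0 with no trend (10 at an unadjusted p under 0.05) and 0 with the Y-linked covariate (12 unadjusted), and 2 (without KO_CSPG A) to 6 (without WT_CSPG D) with 1 library left out. Over the 11588 genes the count of 328 became 74 with no trend, 3 with the Y-linked covariate, 562 without WT_CSPG B and D, and 178 to 551 with 1 library left out. The cause of these changes was not tested. Without WT_CSPG B and D 6 members passed, with *Cdh20* (0.65) and *Pcdh10* (0.19) gained and *Celsr1* (-0.20, adjusted p = 0.051) lost.

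Among the 35 named members, some that had not passed changed sign. With the Y-linked covariate, where 59 of all 78 members were below 0 against 43 as reported, the named ones were *Cdh4* (-0.036), *Fat4* (-0.53), *Pcdh10* (-0.17), *Clstn1* (0.013), *Pcdh7* (-0.21), *Cdh8* (-0.26), *Cdh11* (-0.44), *Pcdh20* (0.24), *Fat3* (-0.18), *Clstn2* (-0.27), *Cdh6* (0.45), *Pcdha2* (-0.58) and *Pcdhgc3* (-0.20). Without WT_CSPG B and D they were *Celsr2* (0.070), *Cdh13* (-0.059), *Pcdh17* (0.048), *Pcdhac2* (0.014) and *Pcdhb7* (0.014). Upper-quartile scaling turned *Pcdh17* (0.011) and *Pcdhb7* (0.011), and the length trend removed turned *Pcdh17* (0.011). With 1 library left out the ranges were -0.045 to 0.17 (*Cdh4*), -0.086 to 0.0077 (*Celsr2*), -0.018 to 0.095 (*Cdh8*), -0.014 to 0.086 (*Cdh11*), -0.044 to 0.039 (*Cdh13*), -0.056 to 0.086 (*Pcdh17*), -0.075 to 0.018 (*Pcdh20*), -0.028 to 0.054 (*Fat3*), -0.015 to 0.084 (*Clstn2*) and -0.043 to 0.051 (*Pcdhb7*). Tests on counts with edgeR or DESeq2 were planned and not run, and reads were recovered from the normalized values for library totals only. The lowest member mean is 48.0 normalized counts, where small changes are beyond these 4 libraries a group.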

Other observations

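Library B stood highest for the large atypical cadherins in both groups. Of the 7 Celsr, Fat and Dachsous members, WT_CSPG B was the highest WT_CSPG library for 6 and KO_CSPG B the highest KO_CSPG library for 7, with both true for 6 (85.7%). The exception was *Fat3*, highest in WT_CSPG A. Both were true for 20.7% of the 2046 genes over 8000 bases and for 8.43% of the 11588 genes off chromosomes X and Y. Taken singly, WT_CSPG B was highest for 39.1% and KO_CSPG B for 47.5% of those 2046 genes. Among the 17 members over 8000 bases WT_CSPG B was highest for 8 and KO_CSPG B for 14. Among all 78 members the counts were 25 and 40, so the pattern is not particular to the atypical cadherins. This was seen in the data first and no test was run on it, and the 7 genes share the library.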
